A study of Mus musculus with 3 samples.

Results

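The genes described here are 45 genes of DNA replication, covering origin licensing, the replicative helicase, the polymerases with their clamp, and the supply of nucleotides. They were chosen by gene symbol, and each was represented by its brightest probe set over 3 arrays among the probe sets that carry a single gene symbol. All 45 were measured, out of 19938 genes with a probe set of their own. The arrays were Affymetrix arrays of total RNA from CD4+ CD8+ double-positive (DP) thymocytes of wild-type C57BL/6 mice aged 5 to 6 weeks. DP cells are the thymus stage that follows a burst of division and precedes selection on the T cell receptor. Each of the 3 samples came from a cohort of littermates, whose thymocytes were selected with magnetic beads against CD8 and afterwards CD4, so that array 1, array 2 and array 3 stand for 3 cohorts of 1 group. The series has no second condition, and the comparisons are therefore between cohorts and between gene groups.

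Before a cell copies its DNA, the origin recognition complex (ORC) marks origins, and Cdc6 and Cdt1 load the ring of Mcm2 to Mcm7 there, a step called licensing that geminin blocks once S phase has begun. Cdc45, the GINS complex and Mcm10 then switch the ring on as a helicase, primase and polymerase alpha start each strand, and polymerases delta and epsilon extend it while held by the sliding clamp PCNA. Replication protein A (RPA) covers the exposed single strands, Fen1 and Lig1 finish the lagging strand, and ribonucleotide reductase with thymidylate synthase and related enzymes supplies the building blocks. Many of these genes are textbook targets of E2F transcription factors, which turn them on as cells enter S phase.

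Values are the deposited log2 expression values, and errors are the SD over 3 arrays. A background limit was set on each array at the 95th percentile of 101 genes known from organs such as liver, brain or muscle. It came to 7.35 on array 1, 7.43 on array 2 and 7.37 on array 3, and a gene over it is called above background. A probe set's value also depends on how well its probes bind, so levels are summarised by the median of a gene list, as a description, and single genes are compared between arrays only. Array 1 stood apart from the others. Across 28939 probe sets Pearson's r was 0.993 between array 1 and array 2, 0.993 between array 1 and array 3, and 0.996 between arrays 2 and 3. Xist, which coats and silences one X in female cells, had 11.65 on array 1, against 5.40 and 5.68 on arrays 2 and 3. The Y-linked gene Eif2s3y had 4.21 on array 1, against 10.29 and 10.08 on arrays 2 and 3. Kdm5d had 4.46, against 9.10 and 8.97, and Uty had 4.00, against 8.96 and 8.98. In these genes array 1 had the female pattern and arrays 2 and 3 the male pattern. A part of sex in any difference of array 1 cannot be told apart from other differences between the cohorts. The 22 immediate-early genes, which cells transcribe within minutes of a stimulus, averaged 9.57 on array 1, against 8.54 and 8.59 on the others. Of the 22, 20 (90.9%) were highest on array 1, against 34.5% of all genes. The DP stage list was above background in full (15 of 15 measured, against 41.5% of all genes). Cd4 had 11.74 ± 0.15, Cd8a 13.19 ± 0.14 and Rag1 13.51 ± 0.10. Of the 15, 13 (86.7%) were lowest on array 1, against 41.1% of genes above background. Markers of other cells averaged 6.50, 6.20 and 6.31 on arrays 1, 2 and 3 for 20 myeloid and dendritic genes, 2 of them above background throughout. The 15 mature T cell genes averaged 8.05, 7.70 and 7.82, with 10 above background on all arrays. Highest on array 1 were 12 of the 15 (80.0%), against 34.5% of all genes. The 16 early thymocyte genes averaged 6.76, 6.68 and 6.66, with 2 above background on all arrays. Above background throughout were also 1 of 11 B cell, 0 of 5 erythroid, 3 of 14 thymic epithelial and 3 of 13 stromal and endothelial markers. The defining markers Cd79a, Ms4a1, Csf1r, Itgam, Lyz2, Foxn1, Kit and Il2ra were above background on no array. The collagen gene Col1a1, a stromal marker, was just above the limit on all 3, at 7.48, 7.50 and 7.53. Cd74, the invariant chain of antigen-presenting cells, had 8.83 on array 1, against 7.27 and 8.05 on arrays 2 and 3, and was above background on arrays 1 and 3. The part of these differences between cohorts in the results below was not tested. In bulk RNA, fewer cells of a type and less RNA per cell cannot be told apart.

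RefSeq promoter windows of GRCm38.p6, each 250 bases before to 50 bases after a start site, were at hand for 37 of the 45 genes. The E2F motif was searched on both strands as TTTCGCGC, TTTGGCGC, TTTCCCGC or TTTGGCGG, and 17 of the 37 genes (45.9%) held a match. That compares with 407 of 6734 genes above background on all arrays (6.04%) and 730 of 27025 genes with a window (2.70%). The windows of the 37 genes held a median of 23 CpG pairs, counted in the richest window of each gene, and those of the 6734 genes 24. The 170 bases before the start site are shown for 6 genes of origin licensing and the helicase ring that hold a match there, with matches in capitals. The origin genes Orc1 and Orc3 each hold 1 match, read on opposite strands.
Orc1, chr4:108579284-108579453, plus strand: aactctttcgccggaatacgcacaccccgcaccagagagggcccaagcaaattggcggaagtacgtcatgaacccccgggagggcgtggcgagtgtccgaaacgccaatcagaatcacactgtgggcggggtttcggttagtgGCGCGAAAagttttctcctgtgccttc
Orc3, chr4:34614943-34615112, minus strand: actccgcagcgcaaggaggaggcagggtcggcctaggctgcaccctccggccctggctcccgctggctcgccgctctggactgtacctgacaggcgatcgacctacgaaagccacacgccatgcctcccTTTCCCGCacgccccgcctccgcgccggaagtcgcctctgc
The loader gene Cdc6 and the ring genes Mcm5, Mcm6 and Mcm7 follow. In Mcm5 and Mcm6, a pair of matches on opposite strands overlaps in a single run of capitals, and Mcm6 holds a further match nearer its start.
Cdc6, chr11:98907981-98908150, plus strand: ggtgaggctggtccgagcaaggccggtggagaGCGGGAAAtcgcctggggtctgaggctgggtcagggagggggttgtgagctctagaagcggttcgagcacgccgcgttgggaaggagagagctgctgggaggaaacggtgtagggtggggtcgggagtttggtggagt
Mcm5, chr8:75109339-75109508, plus strand: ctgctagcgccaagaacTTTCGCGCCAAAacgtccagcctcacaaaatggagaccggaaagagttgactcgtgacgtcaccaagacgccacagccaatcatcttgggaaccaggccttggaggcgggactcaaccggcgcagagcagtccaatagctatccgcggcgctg
Mcm6, chr1:128359706-128359875, minus strand: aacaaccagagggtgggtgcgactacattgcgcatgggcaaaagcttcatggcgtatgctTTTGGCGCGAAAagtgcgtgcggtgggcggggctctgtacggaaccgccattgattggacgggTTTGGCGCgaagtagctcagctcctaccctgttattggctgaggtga
Mcm7, chr5:138171884-138172053, minus strand: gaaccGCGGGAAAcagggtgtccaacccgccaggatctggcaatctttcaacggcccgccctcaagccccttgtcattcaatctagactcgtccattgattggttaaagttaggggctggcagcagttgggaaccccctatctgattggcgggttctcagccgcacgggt

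The other motifs searched gave smaller ratios between the shares, apart from RUNX. The CCAAT box, searched as CCAAT, was matched in 23 of 37 replication genes (62.2%), against 43.5% of the 6734 genes above background. The GC box GGGCGG was matched in 75.7%, against 71.8%. For the factors the wider project mapped, the ETS core CCGGAAGT was matched in 8 of 37 (21.6%), against 11.3%, the E box CAGCTG bound by E proteins in 16.2%, against 16.5%, and the RUNX motif TGTGGTT in 0 of 37, against 4.37%. Matches are letters in a window and were not tested as binding sites. Among the 26 mitosis genes with a window, 3 (11.5%) held an E2F match and 20 (76.9%) a CCAAT box, whereas 10 of 38 further replication genes (26.3%) held an E2F match.

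**Figure D1:**
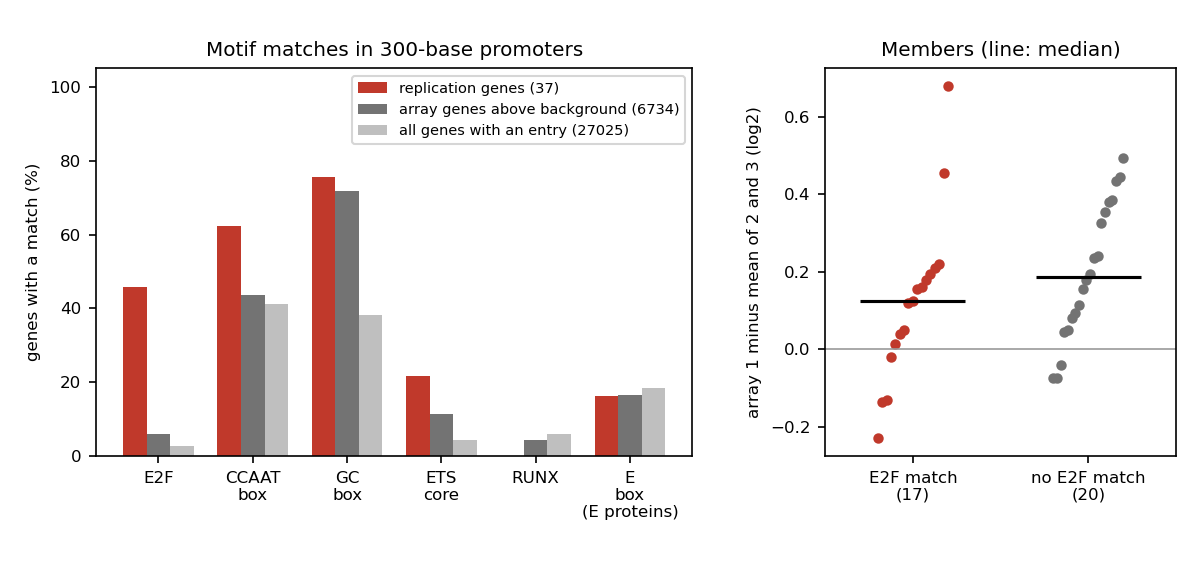
Left, the percentage of genes whose 300-base promoter windows hold each motif, for 37 replication genes, 6734 array genes above background and all 27025 genes with a window. Right, each replication gene's array 1 value minus the mean of arrays 2 and 3 (log2), for the 17 genes with an E2F match and the 20 without, with a line at each median. The E2F bars differ most, at 45.9% against 6.04% and 2.70%, while the points at the right overlap.

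Replication genes were expressed throughout the group. Of the 45, 43 lay above background on all 3 arrays, against a background of 41.5% of all 19938 genes, and the other 2, Orc1 and Gmnn, did so on only some arrays. The 3-array means ran between 7.39 and 12.23, with a median of 9.49, against a median of 6.85 for all genes and 9.08 for the 8268 genes above background on all arrays. The SD over arrays had a median of 0.11 in the replication genes, against 0.09 in the genes above background, and 21 of the 45 had an SD under 0.1.

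**Figure D2:**
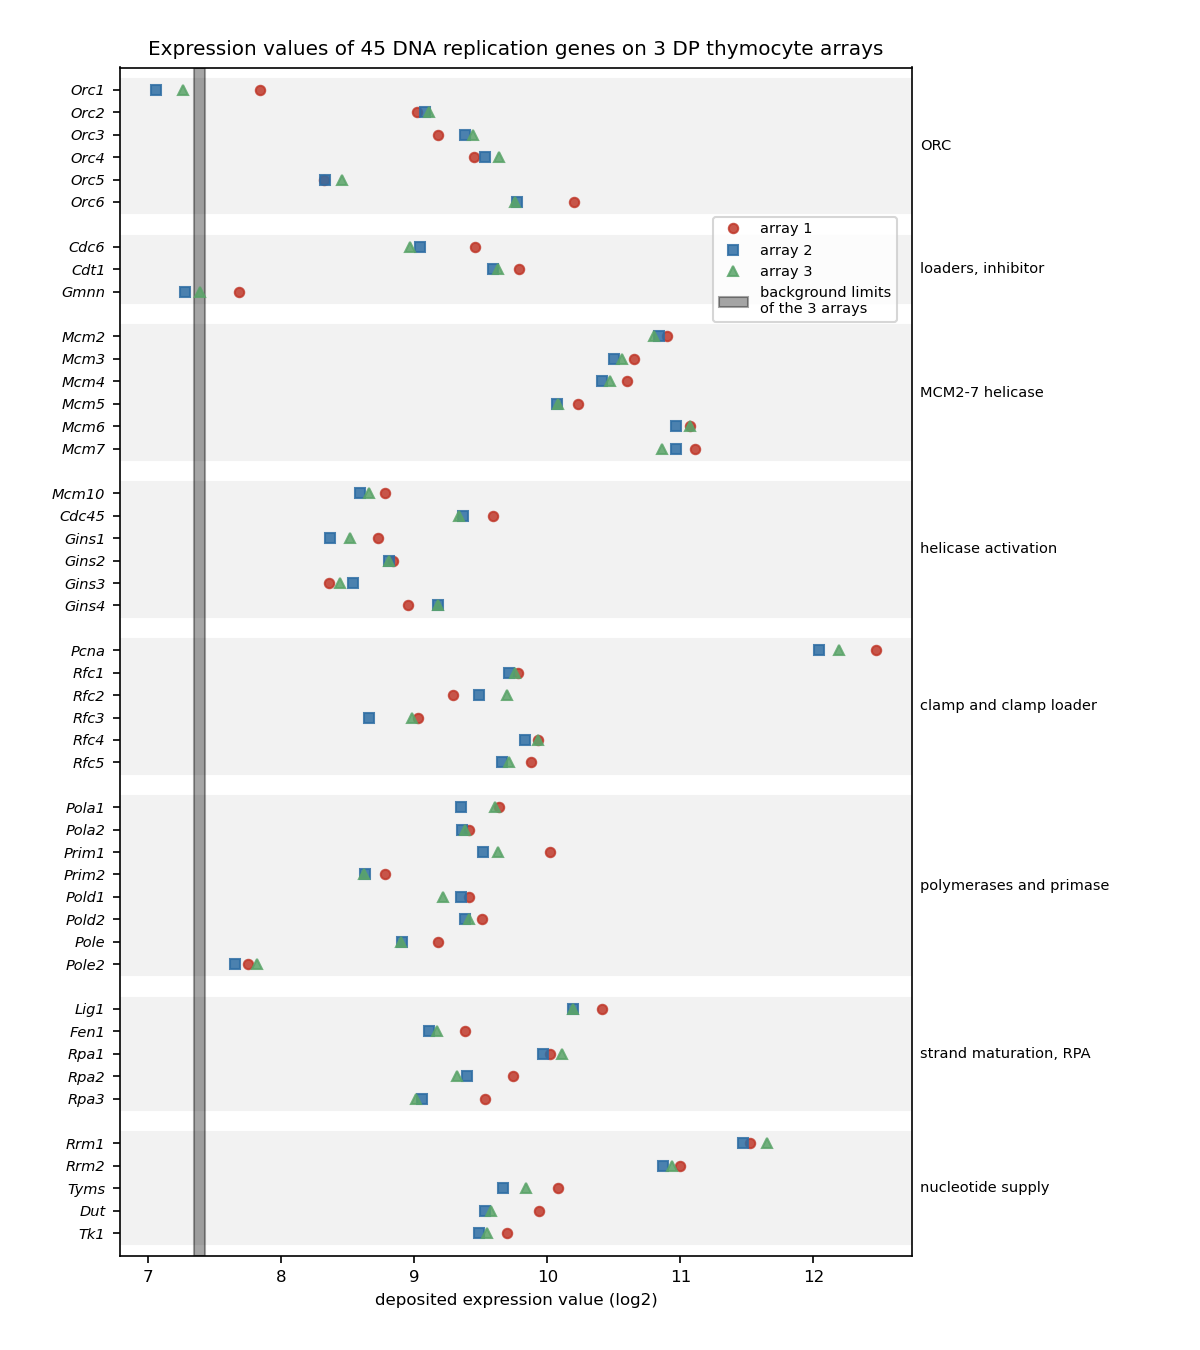
Deposited expression values (log2) of the 45 replication genes on array 1 (circles), array 2 (squares) and array 3 (triangles), in 8 groups by role, with a band over the background limits of 7.35 to 7.43. Orc1 and Gmnn straddle the band, the remaining 43 genes lie to its right on every array, as Pcna does at 12.04 to 12.47.

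The cohorts differed in one direction for most of these genes. Array 1 held the highest value of 33 of the 45 (73.3%), against a background of 34.5% of all genes and 38.6% of genes above background. It held the lowest value of 7 (15.6%), against 39.3% and 41.1%, tied with array 3 for the highest value in 2 and lay between the others in 3. In 28 genes (62.2%) array 1 exceeded both others by more than the gap between those, against 20.6% of all genes and 26.0% of genes above background. The replication genes averaged 9.65 on array 1, against 9.47 on array 2 and 9.53 on array 3, and their median excess on array 1 over the mean of the others was 0.16, against -0.01 for genes above background. Arrays 2 and 3 also differed, with array 2 lower than array 3 in 31 genes (68.9%), against 46.9% of all genes and 48.1% of genes above background. It was higher in 11 (24.4%), against 50.2% and 48.0%. For single genes the differences between array 1 and the mean of the others were small. They ran from -0.31 to 0.50 in the replication genes above background on all arrays. In limma's variance test over all 28939 probe sets, 0 of the 45 passed at a Benjamini-Hochberg adjusted p under 0.05, against a background of 0.0207%, and the lowest adjusted p was 0.988. An unadjusted p under 0.05 was found for 4 genes, Orc1, Rpa3, Prim1 and Cdc6, against a background of 4.66% of probe sets. Not passing does not show that a difference is small, since 0 of the 22 immediate-early genes passed either. Jun, with 11.01 on array 1 against 9.65 and 9.56 on arrays 2 and 3, had an adjusted p of 0.416 (limma variance test).

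**Figure D3:**
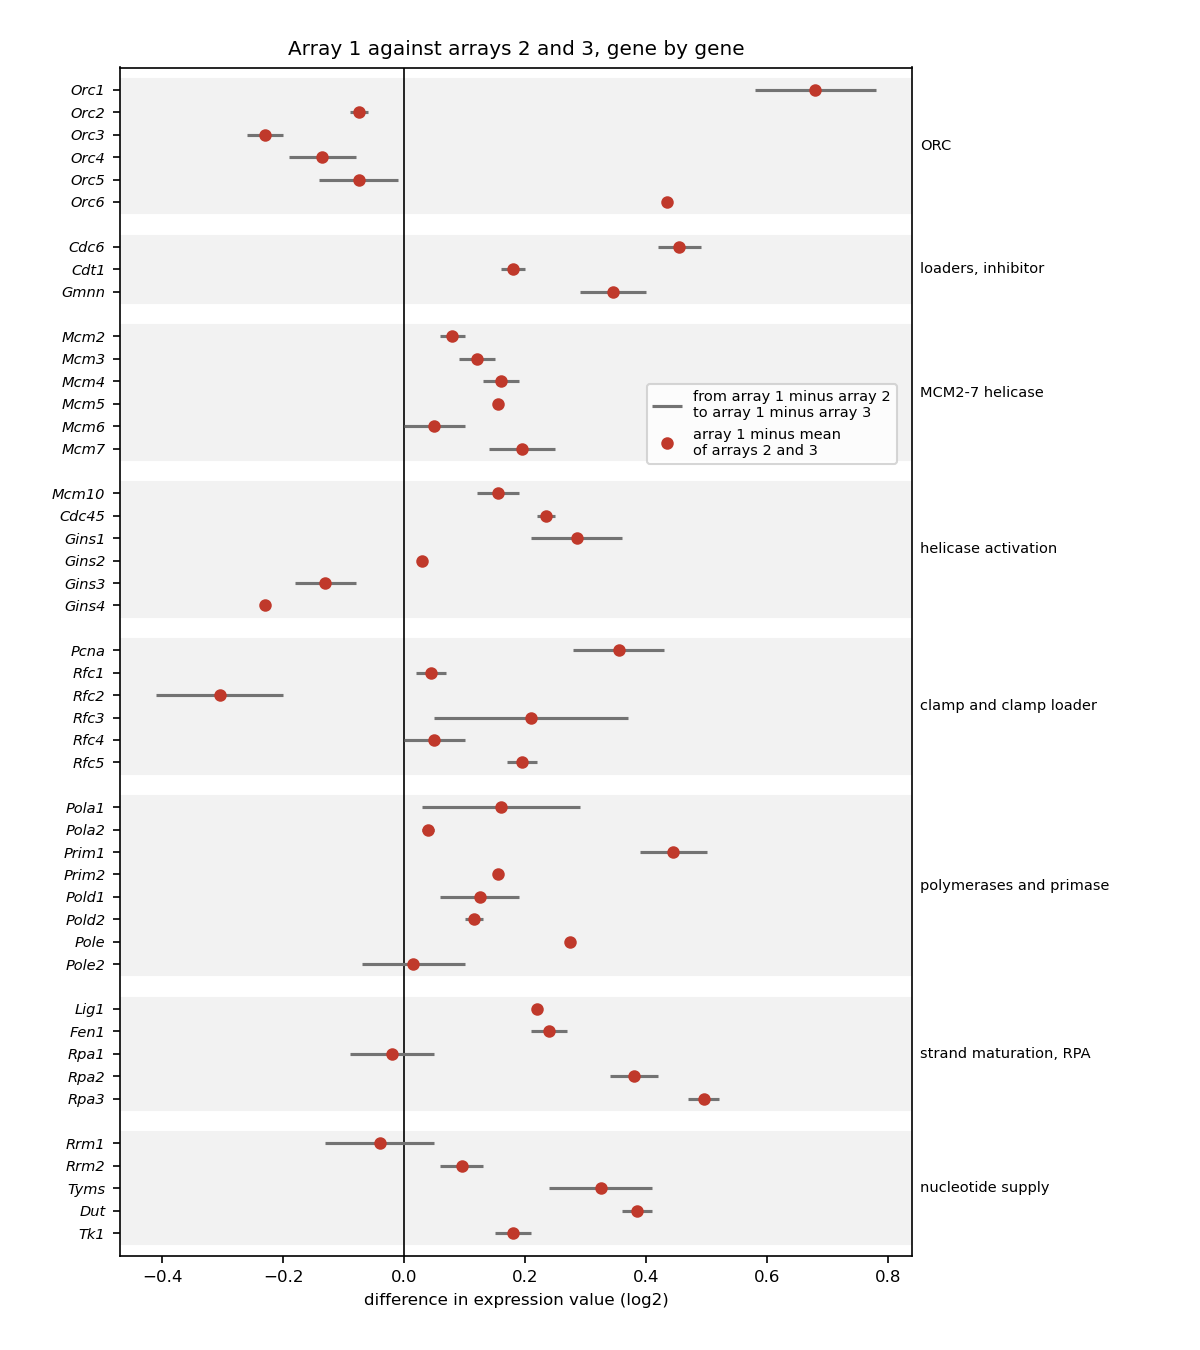
Difference in expression value (log2) between array 1 and the other arrays for each of the 45 genes. Circles mark array 1 minus the mean of arrays 2 and 3, and grey lines join array 1 minus array 2 with array 1 minus array 3. Of the circles, 36 lie right of 0, up to 0.50 for Rpa3 among the genes above background on all arrays, and 9 lie left of it, down to -0.31 for Rfc2. The circle of Orc1 uses values that were not above background on arrays 2 and 3.

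The origin recognition complex divided by subunit. Orc1, the subunit that in mammals comes and goes with the cell cycle, had 7.84 on array 1, against 7.06 and 7.26 on arrays 2 and 3. It was above background on array 1 alone, where it was 1.36-fold over the mean background limit of arrays 2 and 3. Its measured SD was 0.41 (limma variance test, unadjusted p = 0.0167, adjusted p = 0.988). Orc6, the smallest subunit, had 10.20 on array 1, against 9.77 and 9.76, a 1.35-fold excess over the mean of the other arrays. Both had their highest value on array 1, which makes 33.3% of the 6 subunits, against 38.6% of genes above background. The core subunits Orc2 to Orc5, which stay together through the cell cycle, were lowest on array 1, as were 41.1% of genes above background. Orc2 had 9.02 on array 1, against 9.08 and 9.11 on arrays 2 and 3. Orc3 had 9.18, against 9.38 and 9.44. Orc4 had 9.45, against 9.53 and 9.64. Orc5 had 8.32, against 8.33 and 8.46, so that arrays 1 and 2 were nearly equal. In these core genes array 1 was between 0.075 and 0.23 below the mean of the other arrays. Orc2 and Orc3 lay below both others by more than the gap between those, whereas Orc4 and Orc5 did not. Of genes above background, 27.3% did. Averaged over the 6 subunits, array 1 deviated by 0.07 from the 3-array mean, and without Orc1 by -0.01, so that the sign of the complex as a whole rested on that gene.

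The genes that load the helicase ring and the gene of its inhibitor were all highest on array 1, against 34.5% of all genes and 38.6% of genes above background. Cdc6, the loading ATPase, had 9.46 on array 1, against 9.04 and 8.97 on arrays 2 and 3, an excess of 0.46 (1.37-fold) with an SD of 0.27. Cdt1, its partner, had 9.79, against 9.59 and 9.63. Gmnn, which encodes geminin, the inhibitor of Cdt1, had 7.68, against 7.28 and 7.39, and lay above background on arrays 1 and 3 but not on array 2. The 3 genes exceeded both other arrays by more than the gap between those, against 20.6% of all genes and 26.0% of genes above background. Their mean deviation on array 1, 0.22, was the largest of the 8 groups.

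The ring genes varied about as much as genes above background, with a median SD of 0.08, against 0.09. Mcm2 to Mcm7, the 6 subunits of the helicase motor, had means of 10.13 to 11.04 and SDs of 0.05 to 0.13. Mcm7 had 11.11 on array 1, against 10.97 and 10.86 on arrays 2 and 3. Mcm4 had 10.60, against 10.41 and 10.47. Mcm5, whose promoter holds the overlapping E2F matches shown above, had 10.23, against 10.07 and 10.08. Mcm3 had 10.65, against 10.50 and 10.56, and Mcm2 had 10.90, against 10.84 and 10.80. In these 5 genes array 1 was highest, by 0.08 to 0.20 over the mean of the other arrays. In all 5 (83.3% of the ring) it exceeded both others by more than their gap, against 26.0% of genes above background. Mcm6 had 11.07 on arrays 1 and 3 and 10.97 on array 2, so array 1 did not stand out there.

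The genes that switch the ring on were mixed. Cdc45, which rides with the ring as part of the active helicase, had 9.59 on array 1, against 9.37 and 9.34 on arrays 2 and 3. Mcm10, an activation factor, had 8.78, against 8.59 and 8.66. The GINS complex, which joins Cdc45 on the ring, divided again. Gins1 had 8.73 on array 1, against 8.37 and 8.52. Gins2 was flat, with 8.84, 8.81 and 8.81 on arrays 1, 2 and 3 and an SD of 0.02. Gins3 had 8.36, against 8.54 and 8.44, and Gins4 had 8.95, against 9.18 on both. The last 2 were lowest on array 1, Gins4 by 0.23 with no gap between arrays 2 and 3. Over the 6 genes of this step the mean deviation on array 1 was 0.04.

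Pcna was highest on array 1, whereas the clamp loader was not uniform. Pcna, the clamp that tethers the polymerases, had 12.47 on array 1, against 12.04 and 12.19 on arrays 2 and 3, an excess of 0.36 (1.28-fold). A further probe set annotated to Pcna had 12.46, 12.03 and 12.19, values within 0.01 of those used, and whether the pair shares target sequence was not tested. Of the loader genes, Rfc5 had 9.88, against 9.66 and 9.71, and was above the others by more than their gap. Rfc3 had 9.03 and 8.98 on arrays 1 and 3 and 8.66 on array 2, which was the low array here. Rfc4 had 9.93 on arrays 1 and 3 and 9.83 on array 2, and Rfc1, the large subunit, had 9.78, 9.71 and 9.76, with SDs of 0.06 and 0.04. Rfc2 differed in direction from the rest, with 9.29 on array 1, against 9.49 and 9.70 on arrays 2 and 3. At -0.31 it showed the largest deficit on array 1 among the 45 genes, although arrays 2 and 3 were 0.21 apart as well.

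Polymerase and primase genes leaned the same way as the loaders. Prim1, the catalytic primase subunit that lays down RNA primers, had 10.02 on array 1, against 9.52 and 9.63 on arrays 2 and 3, an excess of 0.45 (1.36-fold). Pole, the catalytic subunit of the leading-strand polymerase epsilon, had 9.18, against 8.91 and 8.90. Prim2, the regulatory primase subunit, had 8.78, against 8.63 and 8.62. These 3 stood above both other arrays by more than the gap between those, as did Pold2 (9.51, against 9.38 and 9.41) and Pola2 (9.41, against 9.36 and 9.38), both accessory subunits. Pola1, the catalytic subunit of polymerase alpha, had 9.64 and 9.61 on arrays 1 and 3 and 9.35 on array 2. Pold1, that of the lagging-strand polymerase delta, had 9.41 on array 1, against 9.35 and 9.22. Pole2 had 7.75, 7.65 and 7.82 on arrays 1, 2 and 3, above background throughout. Array 1 was thus highest in 7 of the 8 (87.5%), against 38.6% of genes above background, with Pole2 the exception. It exceeded both others by more than their gap in 62.5%, against 26.0%.

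Among the genes that bind single strands and finish the lagging strand, RPA divided by subunit too. Rpa2 had 9.74 on array 1, against 9.40 and 9.32 on arrays 2 and 3, an excess of 0.38 (1.30-fold). Rpa3, the smallest subunit, had 9.53, against 9.06 and 9.01, an excess of 0.50 (1.41-fold, limma variance test, unadjusted p = 0.036, adjusted p = 0.988). Its further probe set, dimmer and above background on array 1 alone, had 7.69, against 7.15 and 7.23. Rpa1, the large subunit that contacts most of the strand, had 10.02, 9.97 and 10.11 on arrays 1, 2 and 3, with array 3 highest. The nuclease gene Fen1, which trims the flaps of Okazaki fragments, had 9.38 on array 1, against 9.11 and 9.17, and Lig1, which seals them, had 10.41, against 10.19 on both. Both exceeded the other arrays by more than the gap between those, as did 26.0% of genes above background.

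In nucleotide supply, 4 of the 5 genes (80.0%) were highest on array 1, against 38.6% of genes above background. Rrm1, the large subunit of ribonucleotide reductase, had 11.52, 11.47 and 11.65 on arrays 1, 2 and 3. Rrm2, the small subunit, had 11.00, 10.87 and 10.94. Neither stood out on array 1 by more than the gap between the others, and Rrm1 was highest on array 3. Dut, the phosphatase that keeps uracil out of DNA and makes the precursor of dTMP, had 9.94 on array 1, against 9.53 and 9.58 on arrays 2 and 3 (1.31-fold). Tyms, thymidylate synthase, had 10.08, against 9.67 and 9.84 (1.25-fold). Tk1, the thymidine kinase of the salvage route, had 9.70, against 9.49 and 9.55, and its dimmer probe set had 9.19, against 8.88 and 8.89. All 3 thymidine genes, and both Tk1 probe sets, exceeded arrays 2 and 3 on array 1 by more than the gap between those. Of genes above background, 26.0% did.

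**Figure D4:**
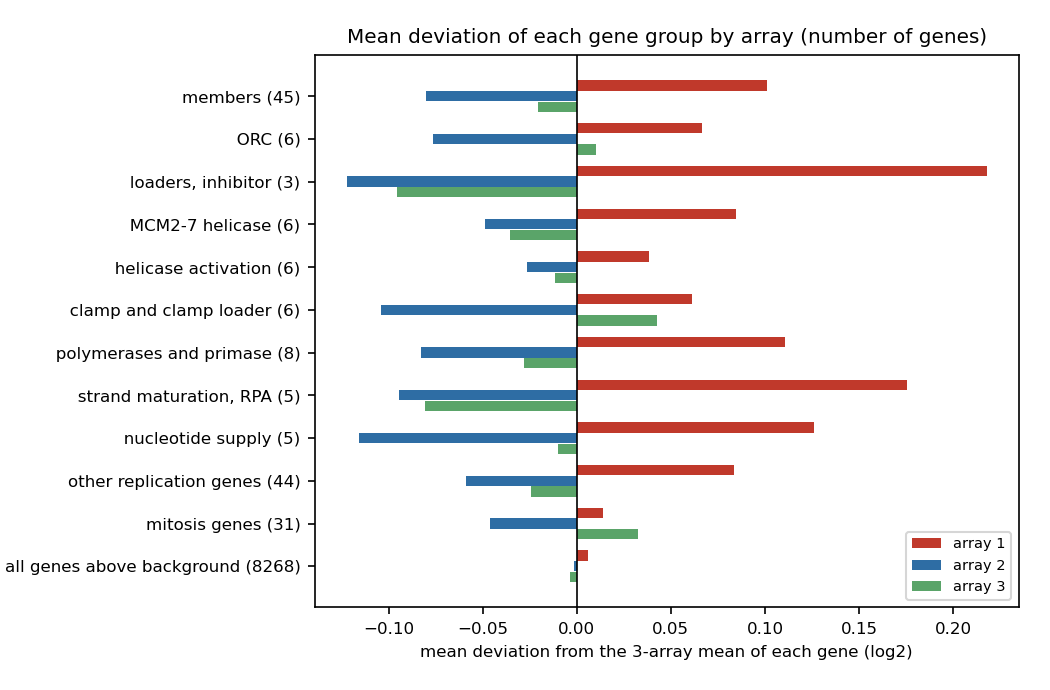
Mean deviation of each gene group from the 3-array mean of its genes (log2) on arrays 1, 2 and 3, with the number of genes in brackets. The 45 genes deviate by 0.10, -0.08 and -0.02. The largest bar is that of the loaders and inhibitor at 0.22 on array 1, mitosis genes stay at 0.01, -0.05 and 0.03, and all genes above background are near 0.

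Of the 43 replication genes above background on all arrays, 8 exceeded the mean of arrays 2 and 3 by more than 0.3 on array 1, against a background of 7.93% of the 8268 genes above background, a cut-off chosen after the values were seen. These were Orc6, Cdc6, Pcna, Prim1, Rpa2, Rpa3, Tyms and Dut. Genes with and without an E2F match in the promoter overlapped in their excess on array 1. Of the 17 genes with a match, 11 were highest on array 1, with a median excess of 0.13, and of the 20 without a match, 16 were, with a median excess of 0.19. Both ranges spanned 0, at -0.23 for Orc3 to 0.46 for Cdc6 with a match, leaving out Orc1, which was not above background on arrays 2 and 3, and at -0.075 to 0.50 without one. Over the genes above background that had a window, 38.8% of 407 with a match and 38.2% of 6327 without were highest on array 1.

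Further genes of the pathway, none of them among the 45, were also mostly highest on array 1. Of 44 measured, 41 lay above background on all arrays, against 41.5% of all genes. On array 1, 27 (61.4%) were highest and 10 (22.7%) lowest, against 38.6% and 41.1% of genes above background. Array 1 exceeded both others by more than the gap between those in 15 (34.1%), against 26.0%. In the variance test 0 passed (limma, 1 with an unadjusted p under 0.05). Cdc7, the kinase that fires licensed origins, had 8.56 on array 1, against 8.40 and 8.24 on arrays 2 and 3, while Dbf4, its activating subunit, had 9.11, 9.13 and 9.17. The firing factors Topbp1 and Ticrr also differed from each other. Topbp1 was flat at 10.52, 10.53 and 10.54, and Ticrr had 9.20 on array 1, against 8.80 and 8.76. Mtbp, the partner of Ticrr, had 8.35, 8.47 and 8.61, lowest on array 1. The 3 genes not above background on all arrays were Recql4 (7.61, 7.38 and 7.48), Samhd1, a dNTP-degrading enzyme (7.47, 6.52 and 7.04), and Rrm2b, the reductase subunit induced by p53 (7.08, 7.29 and 7.12).

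Mitosis genes, the class that acts after replication in the same dividing cells, gave other counts. All 31 measured lay above background on every array, against 41.5% of all genes. Of the 31, 11 were highest and 11 lowest on array 1 (35.5% each), against 38.6% and 41.1% of genes above background. Their mean deviation on array 1 was 0.01. Mki67, a marker of cycling cells, had 11.49, 11.53 and 11.62 on arrays 1, 2 and 3, lowest on array 1. The difference between the replication and mitosis genes was not tested, since 3 arrays of 1 group give no test of it. Of the 24 measured E2F factors, pocket proteins, cyclins and their kinases and inhibitors, 23 lay above background on all arrays, against 41.5% of all genes. Highest on array 1 were 11 (45.8%), against 38.6% of genes above background.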

How the data were processed

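Per the labels, total RNA of sorted DP thymocytes from 3 littermate cohorts was labelled with biotin, 1 array per cohort. The deposited values are log2 expression values made by the authors with the R package affy, per the submitters' processing notes. For the background correction, the normalization and the build, the sources used here state nothing. The sorted values of the arrays differ by at most 0.15, so a global difference between cohorts would not be visible. The protocol text describes formaldehyde fixation without saying whether the RNA samples were fixed.

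Of 35556 probe sets, the 6617 numbered below the first annotated one were left out. Gene symbols came from the platform annotation. Of the probe sets, 21789 have 1 symbol, 1621 several and 12146 none, and only the first kind gave gene names. The RefSeq gene table changed 0 symbols. Variances were tested with an intercept-only limma 3.58.1 fit in R 4.3.3, by an F test against a robust trended prior, adjusted over 28939 probe sets. The procedure was also run on simulated data, whose levels and spreads were taken from the fit to the deposited values. Other steps used Python 3.11.15 and pandas 2.3.3. The number of arrays limits the precision.

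The members and lists were chosen with earlier results of these data known, including that replication genes were higher on array 1, so that pattern is described and not tested. Names outside the members followed a fixed rule: the first 6 measured of the further pathway genes, those on the minority side of the background limit, and set markers. Outside that rule, Eif2s3y, Kdm5d and Uty were named after their values were seen. Alternatives were quantile normalization, median centring, other background limits, priors and filters, the mean of probe sets, and leaving out each array.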

Additional observations from a re-analysis of the deposited data

How the results depend on the processing

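No paired analysis was possible because the series has 1 group. The count of genes above background on all arrays, 43, was 42 with the 99th percentile of the other-organ genes as the limit and 45 with their median plus 1. It was 43 to 44 when an array was left out. The count past the limma variance test was 0 under all 9 alternatives, with 0 to 5 genes at an unadjusted p under 0.05. Under some of them 0 probe sets passed on the whole array, so that a 0 for the 45 genes was unavoidable. These were the prior without a trend, the left-out probe sets kept, and only probe sets above background. The count highest on array 1, 33 of 45, ran between 32 and 35 over the alternatives that keep all 45 genes and 3 arrays. Among the 43 genes above background on all arrays it was 31. With 2 arrays left, array 1 was the higher in 33 genes without array 2 and in 38 without array 3. The mean deviation on array 1, 0.10, ran between 0.06 without array 2 and 0.11 with median centring. Without array 1 neither the count nor the mean deviation can be formed. With 2 arrays left the deviation is taken from their mean. The same difference between arrays then gives a smaller value than over 3 arrays. The mean deviation of the origin recognition complex on array 1 turned to -0.011 when Orc1, not above background on all arrays, was left out. The other 47 values of groups by role kept their sign. Without array 2 the deviation, on that smaller scale, was 0.028 for the origin complex, against 0.067 over 3 arrays. It was 0.025 for helicase activation, against 0.038, and 0.009 for the clamp and its loader, against 0.061. The polymerases had 0.069, against 0.11, and nucleotide supply had 0.068, against 0.13. Part of each fall comes from the change of scale. With quantile normalization helicase activation had 0.025 and the clamp group 0.040. Limits: the 3-array means of Orc1, Gmnn, Pole2 and Orc5 lie within 1 log2 unit above the mean background limit of the arrays.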
